A study of Mus musculus with 9 samples.

Results

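CD8 T cells of the gut epithelium were set against CD8 T cells of lymph nodes. The comparison covered the genes of a panel of immune transcripts that lay above the floor of the deposited table in at least 1 of 3 samples: the sample titled Intraepithelial Lymphocytes CD8 and the samples titled Mesenteric LN CD8 and Peripheral LN CD8. Of 770 genes in the table, 408 met this rule. The study dealt with depletion of the gut microbiota and experimental autoimmune uveitis, an autoimmune disease of the eye, in mice of the B10.RIII background. Its protocol, which reads the same for each sample, names WT mice and Rag2-/- IRBP-/- R161H mice, immunization with a retinal peptide in complete Freund's adjuvant, and short-term or long-term oral vancomycin, neomycin, gentamicin, metronidazole and ampicillin. The labels do not tie the 3 samples to a genotype, an antibiotic arm, an age or a number of animals, so the groups are told apart by the tissue that their titles name, and whether they also differ in those respects is unknown. The intraepithelial group was 1 sample and the node group was 2 samples of different nodes, and the spread behind every test below is that between the mesenteric and the peripheral node.

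Intraepithelial lymphocytes lie between the epithelial cells that line the gut. Many of them are CD8 T cells that stay in the tissue, carry granules with proteases that kill target cells, and are held in place by integrins, among them the CD103 chain that binds E-cadherin. Some carry CD8 as a pair of alpha chains without the beta chain. CD8 T cells of lymph nodes are mostly cells that recirculate: they enter nodes with the help of the chemokine receptor CCR7 and depend on IL-7.

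Values are log2 normalized counts, and a difference of 1 is 2-fold. The lowest value in every sample was 4.32, here called the floor. Whether a value at the floor was not measured or was a low count set to it is not given. The lowest value above the floor, taken as the detection limit, was 5.05 in the intraepithelial sample, 4.36 in the mesenteric and 4.34 in the peripheral sample. Raw counts were not at hand, so counts given here and below for the intraepithelial sample are inferred. Its 153 values up to 150 normalized counts were spaced in steps of 1.66, taken as 1 count each. On that reading the limit equalled 20 counts. This leaves a 95% exact Poisson interval from 4.34 to 5.68 for counting error alone. The depth of the node samples is unknown. Differences were therefore taken after every value below 5.05 was raised to 5.05, so that a difference from a sample at the floor is a lower bound on its size. Of the 408 genes, 318 were above the floor in all 3 samples, 27 only in the intraepithelial sample, 39 in both nodes but not in the intraepithelial sample, 8 in the intraepithelial sample and 1 node, and 16 in 1 node alone. After 20 housekeeping genes and 24 genes above 5.05 in none of the 3 samples were set aside, 364 were tested. The housekeeping genes had a mean of 7.80 in the intraepithelial sample, 7.83 in the mesenteric and 7.85 in the peripheral sample, and their differences ran from -1.14 to 0.63 with a median of 0.09.

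A gene was called higher or lower where limma gave an adjusted p under 0.05 and the intraepithelial value lay at least 1 beyond both node values. By this rule 46 genes were higher (12.6% of the 364) and 35 were lower (9.62%) in intraepithelial CD8. The differences of the higher genes ran from 1.00 to 9.62 with a median of 2.23, and those of the lower genes from -4.72 to -1.04 with a median of -1.58. By size alone, 91 genes (25.0%) lay at least 1 beyond both nodes, while 9 (2.47%) differed by 1 or more between the mesenteric and the peripheral CD8 sample. The median size of a difference over the 275 genes above the limit in all 3 samples was 0.47 between the intraepithelial sample and the nodes and 0.19 between the nodes. The 2 node samples thus lay closer to each other than either lay to the intraepithelial sample. Of the 46 higher genes, 20 were at or below the limit in both nodes and had to differ to be tested at all. For these only a bound on the fold is given, since 2 node values raised to the limit have no spread of their own. Likewise 12 of the 35 lower genes were at the floor in the intraepithelial sample, passed the filter only through the nodes and are given with a bound alone. A further 5 higher genes, Cd38, Casp1, Gfi1, Tbx21 and Klra6, had 1 node below the limit. Their differences are lower bounds too, and raising that node narrowed the node spread behind their SE. With only the mesenteric CD8 sample as the node, 34 of the 46 higher and 16 of the 35 lower calls remained, and with only the peripheral CD8 sample again 34 and 16. That fit has a single pair of samples behind its spread. With no filter on low values 27 and 15 calls remained, with the 3 CD8 samples fitted alone 36 and 24, and with tissue terms shared by CD4 and CD8 samples of 4 tissues 38 and 22. With the node as a block shared by CD4 and CD8, a setting added after the data were seen, 42 and 27 remained. With samples centred on their medians the median difference moved from 0.04 to 0.18, 54 genes were higher and 25 lower, and the share of calls that were higher was 68.4% in place of 56.8%.

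**Figure D1:**
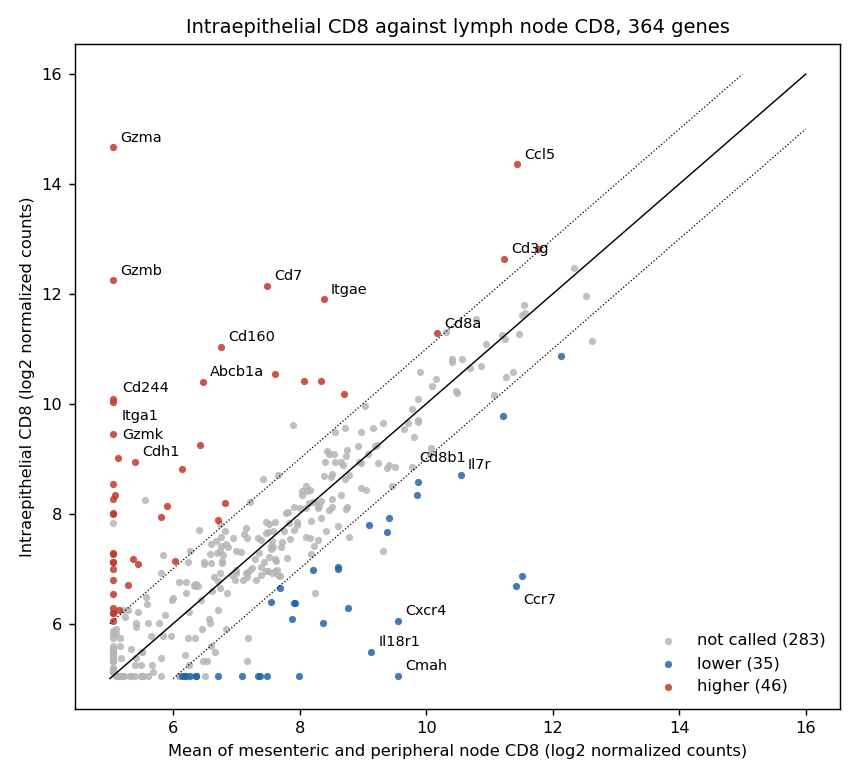
Intraepithelial CD8 value (vertical axis) against the mean of the 2 node CD8 samples (horizontal axis), both in log2 normalized counts with values below 5.05 raised to 5.05, for 364 genes, coloured by call; the solid line marks equal values and the dotted lines a difference of 1. Gzma at 14.67 and Gzmb at 12.25 stand highest above node values at the limit, and Ccr7 and Cmah lie far below the line.

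**Figure D2:**
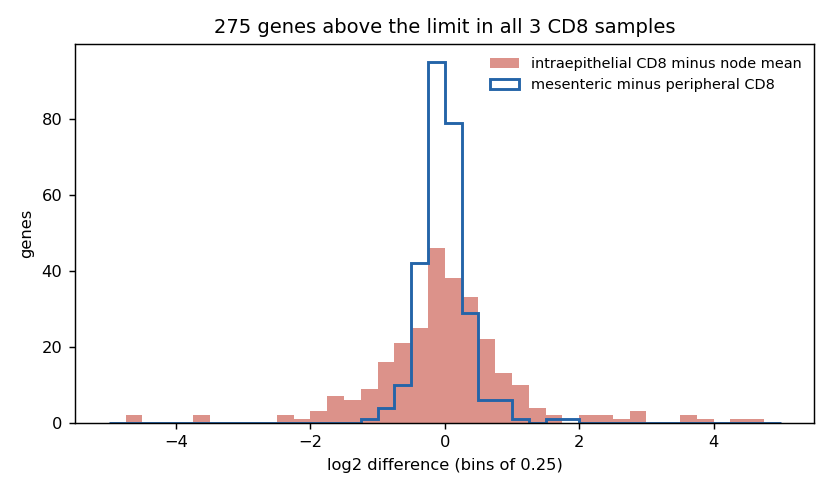
Number of genes (vertical axis) by log2 difference (horizontal axis, bins of 0.25) over the 275 genes above the limit in all 3 CD8 samples, for intraepithelial minus node mean (filled) and mesenteric minus peripheral node (line). The filled distribution is wider, with a median size of 0.47 against 0.19.

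The lineage genes were those of CD8 T cells in each sample. Cd8a, which codes for the alpha chain of CD8, was 11.29 in the intraepithelial sample, 10.26 in the mesenteric and 10.09 in the peripheral sample. It was higher by 1.12 ± 0.10 (SE of the fit here and below, adjusted p = 0.0112), a call that was lost when the 3 CD8 samples were fitted alone or CD4 samples of all tissues were added. Cd8b1, the beta chain, was 8.85, 9.91 and 9.65 in the same order, below both nodes by a difference of -0.93 ± 0.15 (adjusted p = 0.0357), which did not reach the size of a call. Cd4 was at the floor in all 3 samples.

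Promoter sequences of the 2 genes with the largest differences in each direction, among called genes with a single entry in the RefSeq promoter table (GRCm38.p6), are shown for the reader to see the start regions of genes that stand apart. Each line gives the 250 bases before the start of transcription, 5′ to 3′ on the gene's strand, with the RUNX core TGTGGT (or its reverse complement) in capitals. Gzma, the granzyme A gene, lies on the minus strand and its window is chr13:113100982-113101231. Gzmb, the granzyme B gene, is on the minus strand at chr14:56262335-56262584. Cxcr4, a chemokine receptor gene, is on the minus strand at chr1:128592300-128592549, and Gpr183, an oxysterol receptor gene, on the minus strand at chr14:121965194-121965443.
Gzma: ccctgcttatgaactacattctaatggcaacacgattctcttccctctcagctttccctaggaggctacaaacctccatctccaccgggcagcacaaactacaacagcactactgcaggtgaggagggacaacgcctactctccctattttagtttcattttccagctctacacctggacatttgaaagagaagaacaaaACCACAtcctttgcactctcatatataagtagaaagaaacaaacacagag
Gzmb: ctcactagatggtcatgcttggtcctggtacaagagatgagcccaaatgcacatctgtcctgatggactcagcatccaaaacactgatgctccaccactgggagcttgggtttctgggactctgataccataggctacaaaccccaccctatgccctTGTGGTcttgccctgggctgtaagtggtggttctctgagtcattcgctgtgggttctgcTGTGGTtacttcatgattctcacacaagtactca
Cxcr4: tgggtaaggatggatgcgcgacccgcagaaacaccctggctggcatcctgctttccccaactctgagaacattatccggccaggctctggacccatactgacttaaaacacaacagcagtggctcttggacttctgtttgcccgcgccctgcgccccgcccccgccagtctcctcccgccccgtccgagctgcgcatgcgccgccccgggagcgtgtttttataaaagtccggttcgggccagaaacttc
Gpr183: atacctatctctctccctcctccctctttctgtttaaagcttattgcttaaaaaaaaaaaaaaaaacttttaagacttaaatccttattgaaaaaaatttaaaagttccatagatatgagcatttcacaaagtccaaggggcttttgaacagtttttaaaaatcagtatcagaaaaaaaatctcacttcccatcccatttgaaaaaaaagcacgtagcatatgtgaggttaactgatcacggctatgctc
The RUNX core began 50 bases before the start in Gzma, and 93 and 34 bases before it in Gzmb, and was not found in the windows of Cxcr4 and Gpr183. On both strands 4 motifs were searched: TGTGGT (RUNX), GGTGTG (T-box), CTTTGA (TCF) and CACCC (KLF). Among 81 called genes, 56 had entries in the table. TGTGGT was present in 18.4% of 38 entries of higher genes, 16.7% of 30 entries of lower genes, 14.3% of 279 entries of tested genes that were not called and 14.0% of all 32851 entries. GGTGTG was present in 23.7%, 30.0%, 16.8% and 16.3% in the same order, CTTTGA in 23.7%, 6.67%, 10.0% and 13.8%, and CACCC in 68.4%, 56.7%, 63.1% and 52.0%. These are descriptions with no test, since matches of short letters are frequent in any promoter and motifs can overlap.

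Granule proteases showed the largest differences of the comparison. Gzma was 14.67 in the intraepithelial sample, 4.67 in the mesenteric and at the floor in the peripheral sample, at least 787-fold higher. Gzmb, the protease that activates caspases in target cells, was 12.25 and at the floor in both nodes, at least 147-fold higher. Gzmk, another granzyme, was 9.46 and at the floor in both nodes, at least 21.3-fold higher. The family did not move as a whole: Gzmm, a granzyme of resting NK and CD8 cells, was at the floor in the intraepithelial sample and 6.36 in each node, at least 2.48-fold lower. Perforin (Prf1), which forms the pore for granzymes, was 7.29, 7.43 and 7.28, a difference of -0.06 ± 0.31 (adjusted p = 0.88). Ctsw, a cathepsin of cytotoxic cells, was 11.54 against 10.81 and 10.78 and stayed under the size of a call at 0.75 ± 0.11. Of the 14 tested cytotoxic effector genes, 6 were higher and 2 lower, against 12.6% and 9.62% over all genes, with a median of 0.94 against 0.04 over all genes. Over the 8 members above the limit in all 3 samples the median was 0.53. Gzmm lost its call with shared tissue terms.

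Other killing molecules were measured in both nodes. Tnfsf10 (TRAIL), a death receptor ligand, was 9.26 against 6.41 and 6.43, higher by 2.84 ± 0.07 (adjusted p = 0.000728). Ifng, the interferon gamma gene, was 7.88 against 6.84 and 6.59, higher by 1.17 ± 0.14 (adjusted p = 0.0208), a call lost with the 3 CD8 samples alone. Lamp2, a lysosomal membrane protein, was 7.14 against 6.04 and 6.01, higher by 1.12 ± 0.15 (adjusted p = 0.0256), and with the mesenteric or peripheral sample alone it was no longer called (1.10 and 1.13, adjusted p = 0.136 and 0.129). Fasl, the ligand of FAS, was 7.24 against 4.73 in the mesenteric and 6.63 in the peripheral sample, and the distance between the nodes left it uncalled (adjusted p = 0.281). Ctss, a cathepsin of the antigen-processing path, was 7.80 against 9.14 and 9.04, lower by -1.29 ± 0.08 (adjusted p = 0.00564).

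Of 13 tested NK-type receptors and adaptors, 6 were higher and 1 lower, against 12.6% and 9.62% over all genes, and receptors of the CD94/NKG2 family were not among the higher ones. The median was 0.27, and -0.31 over the 7 members above the limit in all 3 samples. Cd244, a receptor of the SLAM family (2B4), was 10.09 and at the floor in both nodes, at least 32.9-fold higher. Cd160, a receptor for HVEM, was 11.04 against 6.72 and 6.78, higher by 4.29 ± 0.08 (adjusted p = 0.000337). Slamf7, another SLAM receptor, was 8.82 against 6.18 and 6.10, higher by 2.68 ± 0.06 (adjusted p = 0.000586). Fcer1g, a signalling adaptor shared with Fc receptors, was 7.0 and at the floor in both nodes, at least 3.86-fold higher. The Ly49 receptor genes Klra7 and Klra6 were 7.29 and 6.25 in the intraepithelial sample, and at most 4.54 and 5.25 in a node. Klra6 was no longer called with the floor as deposited or the 3 CD8 samples alone, and Klra6, Klra7 and Fcer1g were not called with shared tissue terms. Klrk1 (NKG2D) went the other way at 6.37 against 7.68 and 8.16, lower by -1.55 ± 0.26 (adjusted p = 0.0395). Klrk1 lost the call with the 3 CD8 samples alone (adjusted p = 0.136), with the node as a block and with shared tissue terms (-0.77, adjusted p = 0.363). Klrd1 (CD94) was 10.81 against 10.49 and 10.64, a difference of 0.25 ± 0.36 (adjusted p = 0.627). Klrc1 (NKG2A) was 7.69 against 8.12 and 8.72, and Klrc2 (NKG2C) 5.32 against 6.20 and 6.88, both uncalled (adjusted p = 0.191 and 0.0963).

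Genes of tissue residence and gut homing were higher in 6 of 12 tested members and lower in 2, against 12.6% and 9.62% over all genes, with a median of 1.18 against 0.04. Over the 10 members above the limit in all 3 samples the median was 0.55. Itga1, the collagen-binding alpha-1 integrin chain, was 10.04 against 4.40 and 4.46, at least 31.8-fold higher. Itgae, the CD103 chain, was 11.90 against 8.50 and 8.26, higher by 3.52 ± 0.38 (adjusted p = 0.0169). Cdh1, E-cadherin itself, was 8.95 against 5.41 and 5.38, higher by 3.55 ± 0.03 (adjusted p = 8.58e-05). Amica1 (JAML), which binds a junction protein of epithelial cells, was 10.55 against 7.46 and 7.77, higher by 2.94 ± 0.39 (adjusted p = 0.0254). Ccr9, the receptor of the gut chemokine CCL25, was 10.42 against 8.33 and 7.81, higher by 2.35 ± 0.31 (adjusted p = 0.0256). The intraepithelial sample stood above both nodes in each of these genes, which the rule for a call requires. For Cdh1 both node CD4 samples were at the floor and added no spread, so its SE is likely too small. The same holds for genes with both node CD4 samples below 5.05, among them Cd8a, Cd160, Slamf7, Ifng, Ccl4, Xcl1, Tbx21 and Gfi1. Their adjusted p-values are likely too small as well. With the mesenteric or the peripheral sample alone, Itgae (3.40 and 3.64, adjusted p = 0.117 and 0.106), Amica1 (3.09 and 2.78, adjusted p = 0.122 and 0.129) and Ccr9 (2.09 and 2.61, adjusted p = 0.0815 and 0.0638) lost the call. Ccr9 also lost it with the floor as deposited or the 3 CD8 samples alone, and Itgae with the node as a block.

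An integrin chain and a residence marker were lower. Itga4, the alpha-4 chain, was 8.34 against 9.81 and 9.89, lower by -1.51 ± 0.12 (adjusted p = 0.00976). Itgb1, the beta-1 chain that pairs with alpha-1 and alpha-4, was 7.32 against 9.11 and 9.54, below both nodes but not called (-2.0 ± 0.51, adjusted p = 0.0793). Cd69, a membrane protein of activated and resident T cells, was 10.88 against 12.28 and 11.97, lower by -1.24 ± 0.19 (adjusted p = 0.0344). Cd69 was no longer called after median centring, with the 3 CD8 samples alone, with the node as a block, with shared tissue terms or with a single node sample (mesenteric -1.40, adjusted p = 0.0826, and peripheral -1.09, adjusted p = 0.10), and nor was Itga4 with a single node (-1.47 and -1.55, adjusted p = 0.088 and 0.0816). Of 17 tested adhesion genes, 1 was higher and 4 lower, against 12.6% and 9.62% over all genes: Mcam (CD146) was 7.27 and at the floor in the nodes, while Cd97, Cd53, Icam2 and Pecam1, adhesion and membrane proteins of leukocytes, were lower by -1.71, -1.54, -1.22 and -1.14. Cd97 lost the call with shared tissue terms, Cd53 with the node as a block, Icam2 with the 3 CD8 samples alone or median centring and Pecam1 with median centring. These 4 also lost it with either node alone (adjusted p from 0.0516 to 0.136).

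Epithelial markers have to be read beside Cdh1. Of 34 epithelial and stromal markers on the panel, 26 were at the floor in all 3 samples, among them Ceacam1, Ccl25 and Dmbt1, and 5, 5 and 6 were above it in the intraepithelial, mesenteric and peripheral samples. Epcam, an adhesion molecule of epithelial cells, was 6.29 in the intraepithelial sample (47 counts, 95% Poisson interval 5.84 to 6.70) and at the floor in both nodes, at least 2.36-fold higher (not called with shared tissue terms), and was 9.21 in the lamina propria CD8 sample. The summed level of the marker list was 764.9 normalized counts in the intraepithelial sample, 360.4 in the mesenteric and 427.5 in the peripheral sample. Without Cdh1 it was 270.4, 317.9 and 385.9, so the intraepithelial sum was then below both nodes. In the nodes the largest members of that sum were Pecam1 (7.56 and 7.52) and Eng (6.29 and 6.10), with Epcam at the floor. The sum is therefore not a measure of epithelial RNA. The part of epithelial RNA in the Cdh1 value was not tested. In samples of many cells, a smaller share of cells of a type and less RNA per cell cannot be told apart. Of 32 myeloid markers 30, of 16 B cell markers 14 and of 19 helper and regulatory CD4 markers 14 were at the floor in all 3 samples, Lyz2, Csf1r, Cd79a, Foxp3 and Cd4 among them. Of the tested members of these lists, none of the 1 myeloid and 1 B cell gene was called, and Il2ra was called of 3 helper genes. Of 6 epithelial and stromal genes Cdh1 and Epcam were higher and Pecam1 and Eng lower. Over all genes the shares were 12.6% higher and 9.62% lower. Eng (endoglin) was at the floor against 6.29 and 6.10, and lost the call with the 3 CD8 samples alone, after median centring and with shared tissue terms.

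Genes of naive cells and of lymph node homing were mostly lower: 8 of 11 tested members were lower and none higher, against 9.62% and 12.6% over all genes, with a median of -1.83 against 0.04. Over the 7 members above the limit in all 3 samples the median was -1.43. Cmah, St6gal1, Il6ra and Cd28 passed the filter only through the nodes and so could not come out higher. Ccr7 was 6.69 in the intraepithelial sample against 11.24 and 11.59, lower by -4.72 ± 0.29 (adjusted p = 0.00564). Its intraepithelial value rested on 62 counts, with a Poisson interval of 6.30 to 7.04, far below the nodes. Il7r, the IL-7 receptor chain, was 8.71 against 10.48 and 10.61, lower by -1.83 ± 0.13 (adjusted p = 0.00755). Tcf7, the transcription factor TCF-1 of naive and memory T cells, was 9.78 against 11.23 and 11.20, lower by -1.43 ± 0.13 (adjusted p = 0.0112). Cmah and St6gal1, enzymes of sialic acid metabolism, were at the floor in the intraepithelial sample. Cmah was 9.49 and 9.61 in the nodes, at least 22.6-fold lower, and St6gal1 6.90 and 7.28, at least 4.11-fold lower. Il6ra, the IL-6 receptor, was at the floor against 7.52 and 7.45, at least 5.41-fold lower. Cd28, the main costimulatory receptor of naive T cells, was at the floor against 6.49 and 6.93, at least 3.16-fold lower. Bcl2, a survival factor, was 8.13 against 7.81 and 8.02, above both nodes and uncalled (adjusted p = 0.272). Of the 8, Ccr7 (-4.55 and -4.90, adjusted p = 0.0598 and 0.0512), Il7r, Tcf7, St6gal1 and Cd28 lost the call with the mesenteric or the peripheral sample alone (adjusted p from 0.0648 to 0.0964 for Il7r and Tcf7), where the differences of the last 4 were between -2.23 and -1.42. St6gal1 and Cd28 also lost it with the 3 CD8 samples alone, and Cd28 with shared tissue terms.

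**Figure D3:**
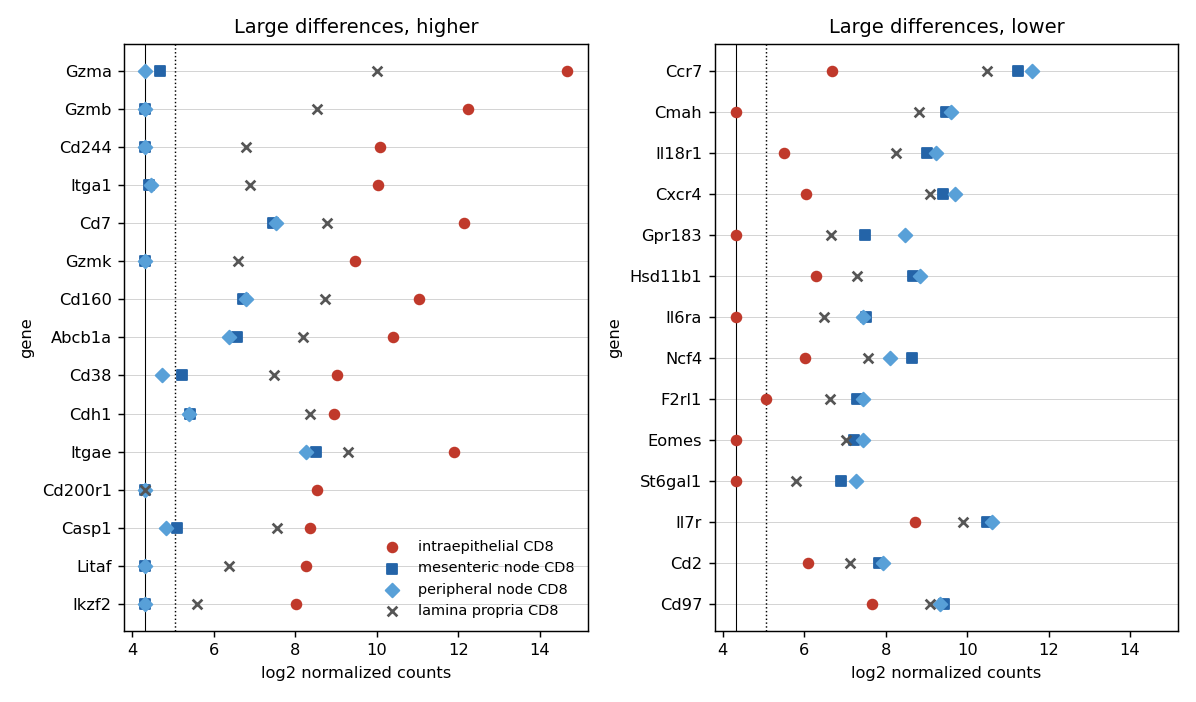
Values (horizontal axis, log2 normalized counts) of 15 genes called higher and 14 called lower (vertical axis), all among the largest differences of their direction, in intraepithelial, mesenteric node, peripheral node and lamina propria CD8; the solid vertical line is the floor of 4.32 and the dotted line the limit of 5.05. The 2 node values lie close together for most genes, Gpr183 at 7.50 and 8.48 being wider apart.

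Receptors for IL-12 and IL-18, cytokines that drive interferon gamma, went in opposite directions. Il12rb2 and Il12rb1, the 2 chains of the IL-12 receptor, were 7.12 and 6.19 in the intraepithelial sample and at most 4.36 in a node, at least 4.20-fold and 2.20-fold higher. Il18r1, the binding chain of the IL-18 receptor, was 5.49 against 9.02 and 9.24, lower by -3.64 ± 0.14 (adjusted p = 0.00221). With shared tissue terms the difference was -1.10 and not called (adjusted p = 0.473). Its intraepithelial value was 27 counts, with a Poisson interval of 4.88 to 6.03. Il18rap, the second IL-18 receptor chain, was at the floor against 6.18 and 6.53, at least 2.47-fold lower. Il18rap was no longer called after median centring, with the 3 CD8 samples alone or with the node as a block, and turned to a difference of 0.44 when tissue differences were taken over CD4 and CD8 samples together. Il17ra, the IL-17 receptor chain, was 7.03 against 8.61 and 8.60, lower by -1.58 ± 0.08 (adjusted p = 0.00412), a call lost with a single node sample (-1.58 and -1.57, adjusted p = 0.057 and 0.0516). Il2ra (CD25) was 6.19 and at the floor in both nodes, at least 2.20-fold higher (lost with a single node sample, with the node as a block and with shared tissue terms), while Il2rb, the receptor chain shared by IL-2 and IL-15, was 10.23 against 10.28 and 10.65 (-0.23 ± 0.22, adjusted p = 0.48). In all, 3 of 21 tested cytokine receptor and Jak genes were higher and 3 lower, shares near the 12.6% and 9.62% over all genes.

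Among 18 tested lineage transcription factors, 3 were higher and 1 lower, shares near the 12.6% and 9.62% over all genes. Eomes, a T-box factor of memory CD8 and NK cells, was at the floor in the intraepithelial sample against 7.22 and 7.45, at least 4.87-fold lower, and was not called with shared tissue terms. Tbx21 (T-bet), the other T-box factor of cytotoxic cells, was 6.71 against 5.52 and 4.75, higher by 1.43 ± 0.25 (adjusted p = 0.0423). The related T-box factors thus lay on opposite sides of the nodes. Ikzf2 (Helios) was 8.02 and at the floor in both nodes, at least 7.84-fold higher. Rora, a nuclear receptor of innate-like lymphocytes, was 7.94 against 5.54 and 6.09, higher by 2.13 ± 0.39 (adjusted p = 0.0465). Runx3, a factor of the CD8 lineage, was 7.29 against 6.83 and 6.55 (0.60 ± 0.18, adjusted p = 0.104). Ikzf2 (2.97 with each node) and Rora (2.40 and 1.85, adjusted p = 0.117 and 0.14) lost the call with the mesenteric or the peripheral sample alone. Tbx21, a low value in the nodes, lost it with the floor as deposited, and Tbx21 and Rora with the 3 CD8 samples alone. Tbx21 also lost it with the node as a block.

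All 5 tested chemokine genes lay above both nodes in the intraepithelial sample, Cxcl10 by only 0.09 over the nearer node. Of the 5, 3 were called higher and none lower, against 12.6% and 9.62% over all genes. Ccl5 (RANTES) was 14.36 against 11.39 and 11.49, higher by 2.92 ± 0.30 (adjusted p = 0.0161). Ccl4 was 8.15 against 5.85 and 5.94, higher by 2.26 ± 0.06 (adjusted p = 0.00073). Xcl1 (lymphotactin) was 10.41 against 8.51 and 8.15, higher by 2.08 ± 0.20 (adjusted p = 0.0133). Ccl3 was 8.25 against 6.07 in the mesenteric and 4.69 in the peripheral sample, and was not called (adjusted p = 0.0513). Ccl5 lost the call with a single node sample (2.97 and 2.87). Ccl4 and Xcl1 kept it, but their node CD4 samples, the only pair behind that spread, were both below the limit. Xcl1 lost it with the 3 CD8 samples alone (adjusted p = 0.0798).

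Of 20 tested genes of the T cell receptor complex and its signalling, 2 were higher and 1 lower, against 12.6% and 9.62% over all genes, with a median of 0.12 against 0.04. By adjusted p alone 9 of the 20 passed, against 35.4% over all genes, most at sizes under 1, such as Zap70 at 0.85 and Cd247 at -0.54. Cd7, a surface receptor found on T and NK lymphocytes, was 12.15 against 7.45 and 7.52, higher by 4.67 ± 0.07 (adjusted p = 0.000248). Cd3g, the gamma chain of CD3, was 12.64 against 11.22 and 11.25, higher by 1.41 ± 0.11 (adjusted p = 0.00976), and lost the call with a single node sample (1.42 and 1.39, adjusted p = 0.088 and 0.0872). Cd3e was 11.30 against 10.26 and 10.36, just under the size of a call (0.99 ± 0.07), and Cd3d 11.09 against 10.96 and 10.94 (0.14 ± 0.10, adjusted p = 0.345). Lck, the kinase bound to CD8, was 11.26 against 11.19 and 11.22 (0.06 ± 0.06, adjusted p = 0.547). Cd2, an adhesion and costimulatory receptor, was 6.09 (41 counts) against 7.83 and 7.94, lower by -1.79 ± 0.08 (adjusted p = 0.00326).

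Partners and relatives of CD2 were mixed. Cd48, the ligand of CD2 and of CD244, was 10.18 against 8.84 and 8.56, higher by 1.48 ± 0.15 (adjusted p = 0.0153), a call lost with the 3 CD8 samples alone. Ly9, a SLAM receptor, was 7.0 against 8.60 and 8.62, lower by -1.61 ± 0.11 (adjusted p = 0.00755). Tnfrsf1b, a TNF receptor, was 8.19 against 6.62 and 7.02, higher by 1.37 ± 0.24 (adjusted p = 0.0421). Ly9 and Tnfrsf1b lost the call with a single node sample (adjusted p from 0.0711 to 0.0872, with differences of -1.60 and -1.62 for Ly9 and 1.57 and 1.17 for Tnfrsf1b). Tnfrsf1b also lost it with the 3 CD8 samples alone. Of 14 tested costimulation and SLAM genes, 2 were higher and 2 lower, shares near the 12.6% and 9.62% over all genes. Of 9 tested inhibitory receptors, 1 was higher and 1 lower, shares near the 12.6% and 9.62% over all genes. Cd200r1, which binds CD200, was 8.54 and at the floor in both nodes, at least 11.2-fold higher. Btla was at the floor against 6.38 and 6.14, at least 2.31-fold lower. Btla lost the call after median centring, with the 3 CD8 samples alone and with shared tissue terms. Lag3 was 7.84 and at the floor in both nodes, and was not called (adjusted p = 0.0806), the node CD4 samples that share its spread being 6.42 in the mesenteric node and at the floor in the peripheral node. Ctla4 was 8.63 against 7.14 and 7.71 (1.21 ± 0.34, adjusted p = 0.0912).

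Other called genes had varied roles. Abcb1a, a multidrug efflux transporter, was 10.40 against 6.57 and 6.37, higher by 3.93 ± 0.32 (adjusted p = 0.00976), and lost the call with a single node sample (3.83 and 4.03, adjusted p = 0.088 and 0.0816). Cd38, an enzyme that consumes NAD, was 9.02 against 5.21 and 4.72, higher by 3.89 ± 0.14 (adjusted p = 0.00205). Casp1, the inflammasome caspase, was 8.35 against 5.10 and 4.82, higher by 3.28 ± 0.12 (adjusted p = 0.00213). Litaf, a lysosomal membrane protein, and Lgals3 (galectin-3) were 8.27 and 7.99 and at the floor in both nodes, at least 9.32-fold and 7.67-fold higher. Kit, a receptor tyrosine kinase, Csf2 (GM-CSF) and Lyn, a kinase of the Src family, were 7.12, 6.54 and 6.05 and likewise at the floor in both nodes. Csf2 and Lyn were not called with shared tissue terms. Gfi1, a transcriptional repressor, was 7.17 against 5.69 and 4.85, higher by 1.80 ± 0.33 (adjusted p = 0.0467, lost with the floor as deposited, with the 3 CD8 samples alone and with the node as a block). Lgals3 lost its call with a single node sample. On the lower side, Cxcr4, the CXCL12 receptor, was 6.05 (40 counts) against 9.41 and 9.71, lower by -3.51 ± 0.18 (adjusted p = 0.00412). With shared tissue terms the difference was -1.80 and not called (adjusted p = 0.12). Gpr183, which guides lymphocytes within nodes, was at the floor against 7.50 and 8.48, at least 7.67-fold lower (lost with a single node, -2.45 and -3.43, after median centring and with the 3 CD8 samples alone). Hsd11b1, an enzyme of glucocorticoid activation, was 6.29 against 8.68 and 8.85, lower by -2.47 ± 0.15 (adjusted p = 0.00564). Ncf4, a subunit of the phagocyte oxidase, was 6.02 against 8.64 and 8.10, lower by -2.35 ± 0.29 (adjusted p = 0.0231), a call lost with the 3 CD8 samples alone (adjusted p = 0.105), with the node as a block and with shared tissue terms. F2rl1, a protease-activated receptor, was at its limit of 5.05 against 7.29 and 7.45, lower by -2.32 ± 0.20 (adjusted p = 0.0112). Hsd11b1 and F2rl1 lost the call with a single node sample (-2.39 and -2.56, adjusted p = 0.0598 and 0.0512, and -2.24 and -2.40, adjusted p = 0.0884 and 0.0816). Tlr1, a receptor of bacterial lipopeptides, and Nrp1, a co-receptor of semaphorins, were at the floor in the intraepithelial sample and at most 6.24 in a node, lower by -1.14 and -1.09. Both lost the call after median centring, with the node as a block and with either node alone. Of 6 tested genes of NAD and adenosine metabolism and efflux, Abcb1a and Cd38 were the 2 higher ones. Of 12 tested apoptosis and caspase genes Casp1 was the 1 called. The shares over all genes were 12.6% higher and 9.62% lower.

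Several pathways showed few or no calls. None of 5 tested class II genes (median -0.47) and none of 3 tested proliferation genes (median -0.23) was called, and of 8 tested TNF family ligands Tnfsf10 was the 1 called. Over all genes 12.6% were called higher and 9.62% lower. None of 21 tested interferon-induced genes and none of 15 tested class I presentation genes was called (medians -0.16 and 0.21), while limma alone put 2 genes of the first list and 2 of the second past an adjusted p of 0.05 at smaller sizes, against 35.4% over all genes, with 3 and 7 at an unadjusted p under 0.05. Isg15, a ubiquitin-like interferon-induced protein, was 7.71 against 6.92 and 5.89, and Ifit3 was 5.32 against 7.62 and 6.72, with the nodes far apart for each. Of 32 tested immediate-early and NF-kB genes, 1 was higher and 3 lower, fewer in share than the 12.6% and 9.62% over all genes. Nfkbia, the inhibitor of NF-kB, was 7.93 against 9.62 and 9.22, lower by -1.49 ± 0.21 (adjusted p = 0.0292), a call lost with the 3 CD8 samples alone (adjusted p = 0.117), with the node as a block and with shared tissue terms (-0.77, adjusted p = 0.155). Myc was 8.57 against 9.92 and 9.81, lower by -1.29 ± 0.10 (adjusted p = 0.0088, lost with a single node sample, -1.35 and -1.24, adjusted p = 0.0711 and 0.0738). Ikbke, an IKK-related kinase, was 6.64 against 7.66 and 7.71, lower by -1.04 and uncalled after median or housekeeping centring. Mapk3 (ERK1) was 7.09 against 5.36 and 5.52, higher by 1.65. The early genes Fos, Jun and Egr1 were 11.97, 11.80 and 8.95 in the intraepithelial sample, close to or within the range of the nodes, which were 12.95 and 12.10 for Fos, 11.95 and 11.15 for Jun and 8.89 and 7.91 for Egr1. Among class II genes, Cd74, the invariant chain, was 6.96 against 8.33 in the mesenteric and 6.67 in the peripheral sample, and so lay between the nodes.

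**Figure D4:**
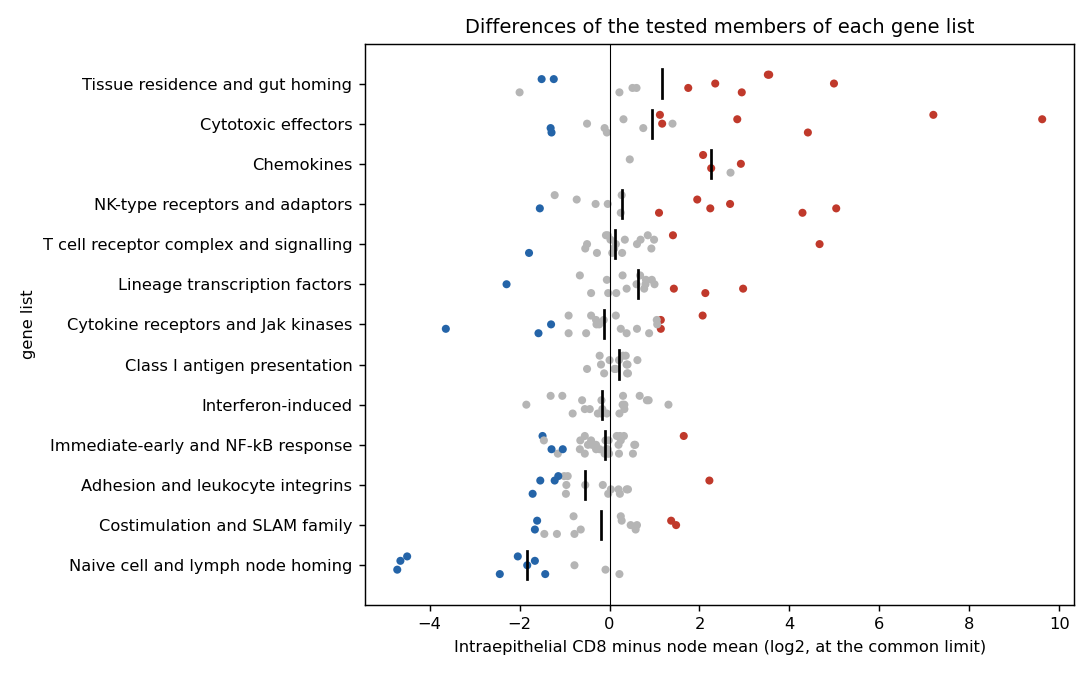
Difference of intraepithelial CD8 from the node mean (horizontal axis, log2 with values below 5.05 raised to 5.05) for the tested members of 13 gene lists (vertical axis); red points were called higher, blue lower and grey neither, and the black bar is the list's median. Naive and node homing genes reach -4.72 with no red point, and cytotoxic effectors reach 9.62 with points on both sides.

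The same difference in CD4 samples, intraepithelial CD4 minus node CD4, was set against that in CD8 with all values raised to 6.30, the limit of the intraepithelial CD4 sample. Of 348 genes tested, 88 (25.3%) had an adjusted p under 0.05, and for 17 of these all 4 node samples were above the limit and raised values could not have made the difference. A stricter count was chosen after the data were seen: 212 genes were above 6.30 in all 4 node samples, and among them 9 (4.25%) passed with a size of at least 1 that raising values could not have made. All 9 were more negative in CD8. The stricter count left out every gene below 6.30 in a node sample. Among those left out, the difference between subsets was 2.65 for Cd244, 2.33 for Cdh1 and 2.03 for Cd7, and -3.43 for Cxcr6 and -3.19 for Ccl5. The shared direction of the 9 therefore does not describe the genes that are low in nodes. Il18r1 was 9.63 in intraepithelial CD4 against 8.12 and 8.25 in the node CD4 samples, so the difference was 1.45 in CD4 and -2.83 in CD8 at this limit (difference between subsets -4.28 ± 0.20, adjusted p = 0.00329). Cxcr4 was 9.11 in intraepithelial CD4 against 9.12 and 9.27, a difference of -0.09 against -3.26 in CD8 (-3.17 ± 0.26, adjusted p = 0.0123). Hsd11b1 differed by -0.99 in CD4 and -2.47 in CD8, and Cd97 by -0.40 and -1.71. The other 5 were Icam1, Itgal, Bst2, Ctsw and Batf, none of them called in the CD8 comparison. Icam1, a ligand of LFA-1, was 7.80 against 8.04 and 7.87 in CD8, and 8.45 against 6.58 and 6.48 in CD4.

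**Figure D5:**
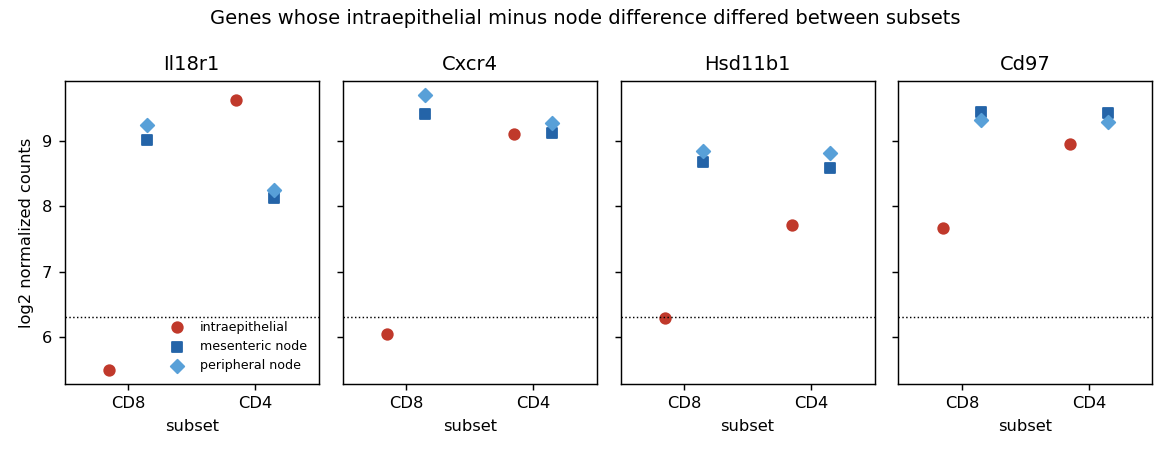
Values (vertical axis, log2 normalized counts) of 4 genes in the intraepithelial, mesenteric node and peripheral node samples of the CD8 and the CD4 subset (horizontal axis); the dotted line is the limit of 6.30. The intraepithelial CD8 point lies below the nodes for each gene, and for Il18r1 the intraepithelial CD4 point at 9.63 lies above them.

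The lamina propria CD8 sample, from the tissue under the epithelium, shares the node samples with this comparison, so its values are only set beside it. For the numbers that follow, the share over all tested genes was not counted. Among the 46 higher genes, 42 were higher in the intraepithelial than in the lamina propria sample, with Rora, Csf2 and Epcam among the exceptions, and 22 lay at least 1 above both nodes in the lamina propria too. Gzma was 10.01, Itgae 9.29 and Cd7 8.79 there. Among the 35 lower genes, 30 were lower in the intraepithelial sample and 5 were at the floor in both. With lamina propria values raised to that sample's own limit of 5.59, 4 lay at least 1 below both nodes there. The 5 at the floor could not be counted at that limit, such as Gzmm at 6.36 in each node. The count of 4 is therefore a minimum. Ccr7 was 10.48 and Il18r1 8.25 in the lamina propria sample, against 6.69 and 5.49 in the intraepithelial sample.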

How the data were processed

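The values were log2 normalized counts in the authors' deposited table of 770 genes and 9 samples, 1 sample per tissue and subset, from probe counting with capture and reporter probes, per the labels' protocols. The scaling and the rule behind the floor of 4.32 are, in the sources used here, not given. Of 408 members, 402 matched a RefSeq symbol (GRCm38.p6) and 5 a synonym.

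Values below 5.05 were raised to 5.05, and 364 genes were fitted with limma 3.58.1 in R 4.3.3 (lmFit, eBayes with a trend) over 5 samples: intraepithelial CD8, the 2 node CD8 samples and the 2 node CD4 samples, which only add to the spread. This left 2 residual degrees of freedom, and the lone intraepithelial sample was assumed to vary like the nodes. Nothing in the labels gives separate animals, so p-values measure only the spread between the node samples, which may be technical. Adjustment was Benjamini-Hochberg over the 364 genes. The difference between subsets was fitted likewise over 6 samples. Fold bounds were taken against 5.05. Scripts were tested on simulated data, and tables and figures were made with Python 3.11.15, pandas 2.3.3 and matplotlib 3.10.9.

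Genes were named by rule: Cd8a, Cd8b1 and Cd4, the 15 largest called differences in each direction, up to 6 called members and the 4 largest differences of each gene list, and called differences between subsets. Prf1, the CD94/NKG2 genes, Lck, Cd3d, Cd3e, Runx3, Il2rb, Bcl2, Fos, Jun, Egr1, Gfi1, Lyn, Tlr1 and Nrp1 were added after their values were seen. A few genes that the rule names are not reported here. The members and gene lists were chosen with earlier results of these data known. Alternatives covered the floor, centring, the filter, the node samples, the fit and the size of a call.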

Additional observations from a re-analysis of the deposited data

Results flagged for a closer look

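For 4 genes called lower in intraepithelial CD8, the difference from the nodes also differed between CD8 and CD4 by limma with Benjamini-Hochberg adjustment, 1 intraepithelial sample standing for each subset. The difference between subsets (CD8 minus CD4) was -4.28 for Il18r1, -3.17 for Cxcr4, -1.47 for Hsd11b1 and -1.32 for Cd97. The sample titled for cells with both CD4 and CD8 in the epithelium entered no comparison. In it 42 of the 46 genes called higher in intraepithelial CD8 also lay at least 1 above both node CD8 samples. With its values raised to its own limit of 5.52, 25 of the 35 lower genes lay at least 1 below them. Gzma was 15.76 and Gzmb 13.51 in that sample. These counts share the node samples with the comparison and were not tested. The share over all tested genes was not counted, so they do not set the called genes apart.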

How the results depend on the processing

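With 1 intraepithelial sample, no replicate could be left out on that side, and each node sample was left out in turn. The labels give no shared replicate numbers, but CD4 and CD8 samples share a node. With the node as a block (added after the data were seen) 43 genes were higher, 32 lower and 79 differed between subsets, and 12 calls were lost. With the mesenteric sample as the only node 36 genes were higher and 19 lower, and with the peripheral sample 35 and 20. With genes above the limit in all 3 CD8 samples, 22 were higher and 28 lower. With no filter on low values (750 genes tested) 27 were higher and 15 lower, and with a size of 4-fold beyond both nodes 26 and 11. With the floor as deposited, 58 in place of 88 genes differed between subsets. The other alternatives moved the counts to between 31 and 61 higher and between 24 and 47 lower. A single SD for all genes, added after the data were seen, gave 49 and 42. Across every alternative that gave a value, 17 higher and 5 lower calls were kept, with Cmah, Il6ra, Cd2 and Ctss among the lower ones. When tissue terms were shared by CD4 and CD8 samples, Il18r1 and Cxcr4 lost their calls, and the difference changed sign for Il18rap (0.44), H2-Ea-ps (0.72), Cd74 (0.34), H2-Aa (0.67), H2-Ab1 (0.42) and Icos (0.43). With the peripheral node alone it changed sign for Cd74 (0.29), H2-Aa (0.42) and H2-Ea-ps (0.07). The cause was not tested. Without the filter, the calls lost included those of Ifng, Cd48, Xcl1, Ccl5, Itgae, Abcb1a, Il7r and Tcf7. The limit of an inferred 20 counts in the intraepithelial sample bounds what can be said of low genes there.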
